A study of Mus musculus with 6 samples.

Results

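Type I interferon stimulated genes were followed as 37 mouse symbols, taken wherever the gene name of a row in the deposited table was one of them. This found 36 of the 37 among 14918 genes. The last, Ifit3b, is in the table under its older name I830012O16Rik, was matched by its Ensembl identifier, and is given beside the members without being counted with them. RNA was measured in macrophages from C57BL/6 mouse livers, in 3 libraries from mice kept on a high fat diet for 18 weeks and 3 libraries from mice kept on a normal diet for the same time. Mice entered the study when about 6 weeks old, and no agent other than the diet is named for either group. Since the groups are counted in mice, a library stands for 1 mouse here. The sources used here do not say how the cells were isolated or whether they were sorted.

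Type I interferons are cytokines that almost every cell can make when it senses foreign or misplaced nucleic acid. They bind a receptor built from Ifnar1 and Ifnar2, and the signal runs through a complex with Stat2 and Irf9 that binds the interferon-stimulated response element in the promoters of target genes. The products of those genes degrade viral RNA, block translation, attach the ubiquitin-like protein ISG15 to other proteins or restrain virus release, and macrophages keep many of them transcribed at a low level without infection. Irf1 and the guanylate-binding proteins answer strongly to interferon gamma as well, through a separate receptor.

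The promoters of 5 genes are shown: Rsad2 and Oasl1, which stood furthest below the normal diet, Ifit3, which stood lower as well, its neighbour Ifit1, which did not, and its near-copy Ifit3b. Each line gives the 120 bases from 170 to 51 bases before the RefSeq start of the gene (assembly GRCm38.p6), read 5′ to 3′ on the gene's own strand. Capitals mark matches to GAAANNGAAA, a core of the interferon-stimulated response element, or to TTTCNNTTTC, the same core read on the other strand. The stretches lie at chr12:26456503-26456622 on the minus strand for Rsad2, chr5:114923070-114923189 on the plus strand for Oasl1, and chr19:34640719-34640838, chr19:34583359-34583478 and chr19:34607787-34607906 on the plus strand for Ifit1, Ifit3 and Ifit3b.
Rsad2: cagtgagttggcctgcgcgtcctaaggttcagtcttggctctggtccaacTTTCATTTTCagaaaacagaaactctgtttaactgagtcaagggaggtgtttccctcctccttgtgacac
Oasl1: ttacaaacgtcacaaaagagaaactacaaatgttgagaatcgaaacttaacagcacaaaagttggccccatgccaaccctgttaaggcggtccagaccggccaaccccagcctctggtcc
Ifit1: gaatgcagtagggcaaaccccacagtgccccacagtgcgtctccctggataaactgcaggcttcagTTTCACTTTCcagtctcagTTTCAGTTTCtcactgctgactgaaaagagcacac
Ifit3: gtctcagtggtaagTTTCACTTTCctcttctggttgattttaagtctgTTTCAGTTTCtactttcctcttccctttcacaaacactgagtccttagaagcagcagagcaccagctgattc
Ifit3b: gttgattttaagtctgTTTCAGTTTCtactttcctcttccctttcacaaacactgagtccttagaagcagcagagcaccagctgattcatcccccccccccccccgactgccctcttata

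Rsad2 held 1 match, 120 bases before its start, and Oasl1 held none. Ifit1 held 2 matches, at 104 and 85 bases before its start, and Ifit3 held 2, at 156 and 122 bases. Ifit3b carried the same pair at 188 and 154 bases, so that the farther one lies outside the printed stretch. A RefSeq window of 300 bases (250 before to 50 after the start) was in hand for 27 of the 36 members. Of these, 12 held a match on either strand (44.4%), against 1079 of 27025 genes with a window (3.99%). The 12 were Bst2, Ddx58, Eif2ak2, Ifih1, Ifit1, Ifit3, Isg15, Oas1a, Oas3, Rsad2, Stat2 and Trim30a. Matches can overlap, as the 3 of Isg15 do, and a window without a match says only that these letters are not in it.

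Interferon stimulated genes were among the more abundant transcripts of these macrophages on both diets. Levels of different genes are compared here as the authors' FPKM, which is per gene length. The median member stood at 23.7 FPKM, against 6.56 FPKM for the median gene tested, and 33 of the 36 members lay above that median. Bst2, or tetherin, which holds budding virus at the cell surface, had the highest level, with 257 ± 15.3 FPKM on the high fat diet and 293 ± 33.4 FPKM on the normal diet (SD, n = 3 each). Ifi27l2a followed at 249 ± 75.4 and 225 ± 46.5 FPKM, then Irf7 at 200 ± 31.2 and 221 ± 21.4 FPKM and Samhd1 at 169 ± 12.3 and 213 ± 31.0 FPKM, each given for the high fat diet and then the normal diet. The SDs of these 4 genes overlap from each to the next, so their order is not fixed beyond the spread of the libraries. At the other end stood Ifit1, with 4.79 ± 0.35 FPKM on the high fat diet and 4.42 ± 0.92 FPKM on the normal diet.

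**Figure D1:**
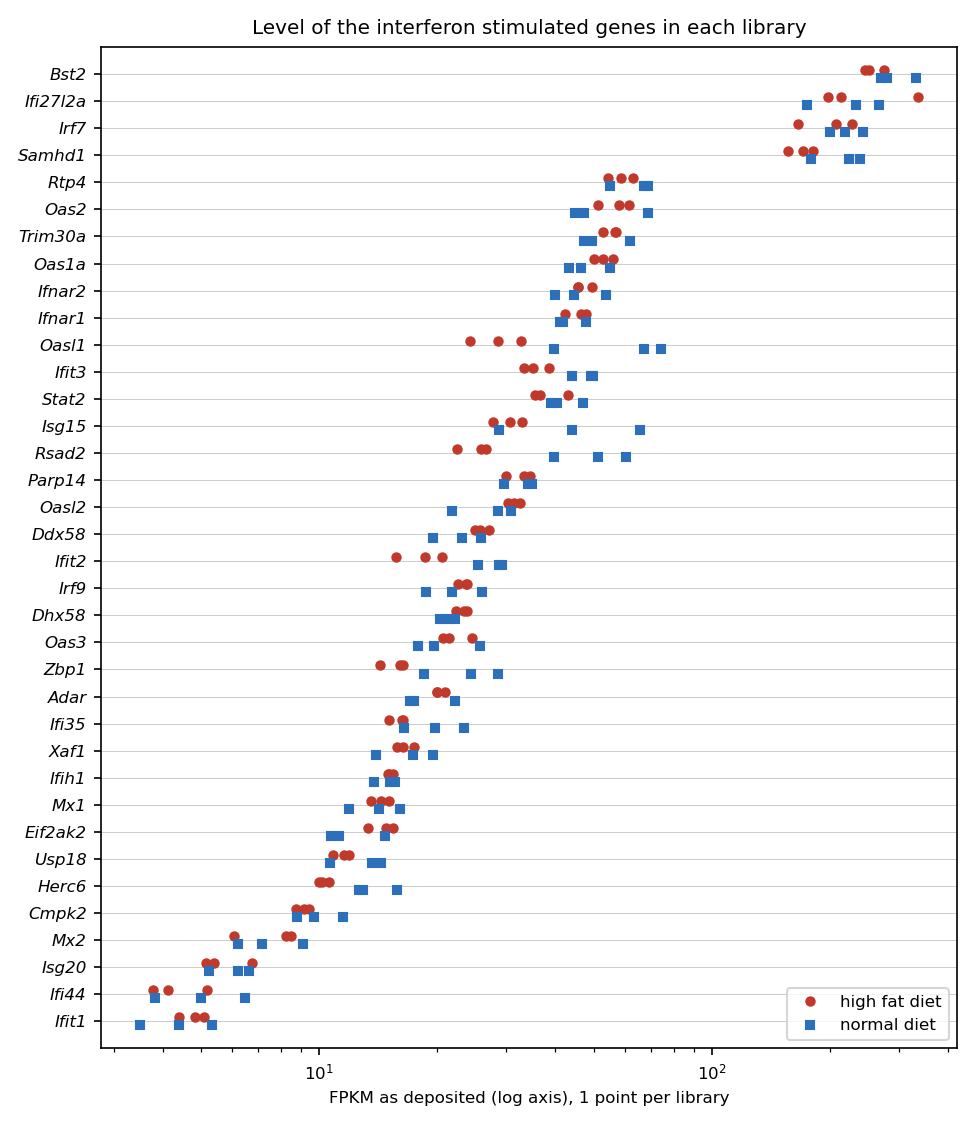
FPKM of the 36 members on a log axis, with the 3 high fat diet libraries and the 3 normal diet libraries as points, ordered by their mean over all libraries. Most members have overlapping points, and levels run from Bst2 at 257 and 293 FPKM to Ifit1 at 4.79 and 4.42 FPKM (means on the high fat diet and the normal diet).

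No member passed the test between the diets, and the members did not stand at a common distance from the normal diet. Most of them lay close to equal on both diets, while Rsad2, Oasl1, Ifit2, Ifit3, Herc6 and Zbp1 stood lower under high fat feeding. All members passed the low-count filter. With edgeR's quasi-likelihood test and Benjamini-Hochberg adjustment over all 14361 genes tested, 0 of the 36 members had an adjusted p under 0.05 in either direction, against 0.634% of all genes. The median log2 fold change of the members, high fat diet over normal diet, was -0.048, with 21 below 0 and 15 above it, beside a median of -0.0003 over all genes tested. Of the 36, 27 had a log2 fold change within 0.25 of 0, and the 95% interval lay within 2-fold either way for 32 (all but Zbp1, Oasl1, Isg15 and Rsad2).

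Looser readings of the same counts picked out a group of lower members and almost no higher one. At an unadjusted edgeR p under 0.05, 8 members stood lower (22.2% of the members, against 8.4% of all genes) and 0 higher (10.2% of all genes). DESeq2 called 6 lower at an adjusted p under 0.05 (16.7%, against 3.46% of all genes), namely Rsad2, Oasl1, Ifit2, Ifit3, Herc6 and Zbp1, and 0 higher (5.27% of all genes). The authors' deposited table had an adjusted p under 0.05 for the same 6 (3.02% of all genes lower) and for 0 higher (4.97% of all genes). In 9 members (25%) all high fat diet libraries lay below all normal diet libraries, which held for 10.8% of all genes. Those were the 6 with Samhd1, Bst2 and Ifi35. Only Dhx58 lay above in every library (14.5% of all genes did), with 53.2 CPM in the nearest library of either diet. CPM is the count scaled to a common library size with TMM factors. The members were chosen with earlier results of these data known, and they share the same 6 libraries.

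**Figure D2:**
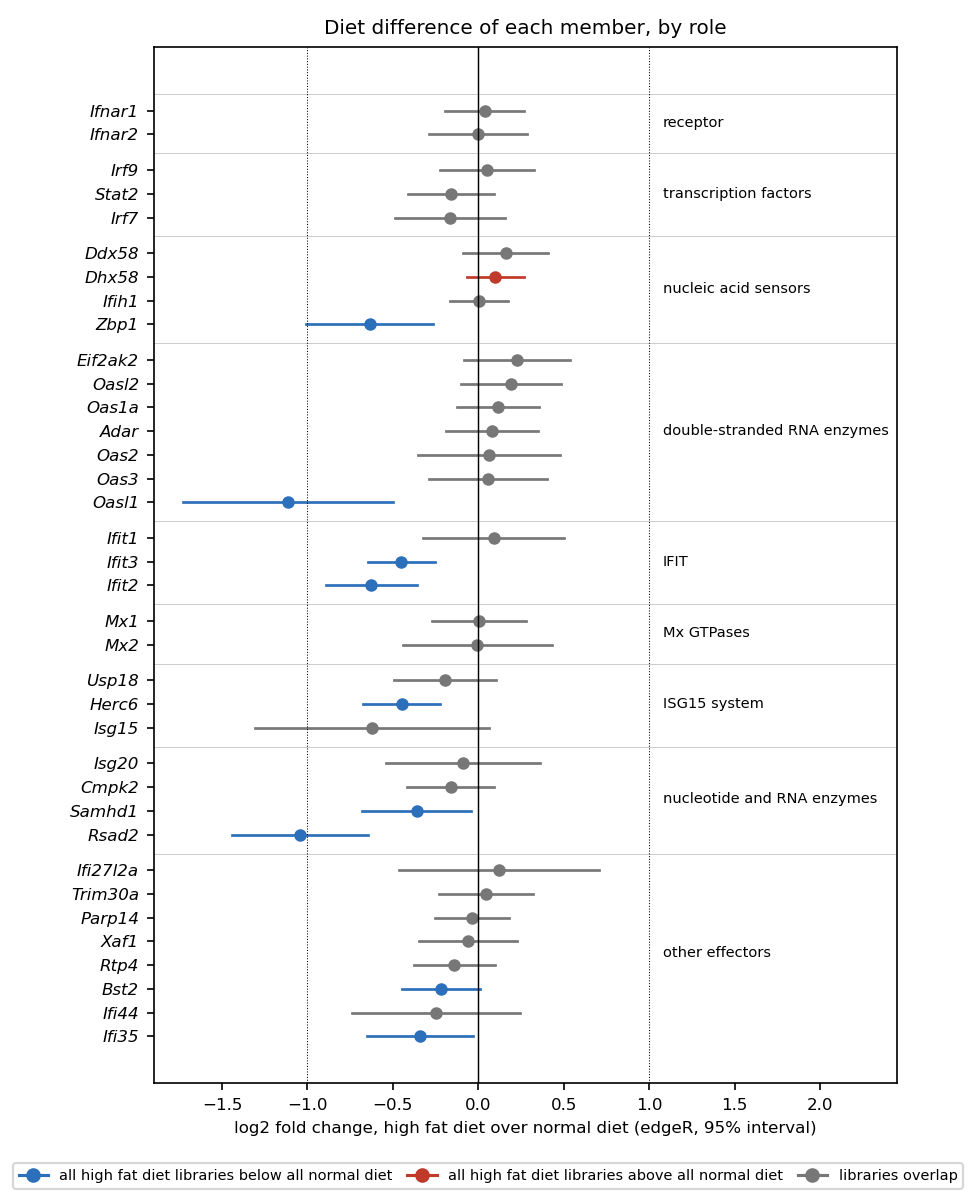
EdgeR log2 fold change of each member, high fat diet over normal diet, with its 95% interval, grouped by role. Points in blue mark the 9 members whose high fat diet libraries all lie below the normal diet libraries, red marks Dhx58, and grey marks overlap. Values run from -1.11 for Oasl1 to 0.23 for Eif2ak2.

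The receptor and the transcription factors of the pathway showed no difference beyond the spread of the libraries. Ifnar1, the receptor chain that carries Tyk2, had 164, 180 and 186 CPM in the high fat diet libraries, against 192, 162 and 162 CPM in the normal diet libraries. Its log2 fold change was 0.038 ± 0.10 (SE, edgeR adjusted p = 0.869), and Ifnar2, the chain that carries Jak1, was at -0.0015 ± 0.12. Irf7, the factor that amplifies interferon production, had 459, 503 and 369 CPM on the high fat diet, against 461, 548 and 485 CPM on the normal diet. The groups overlap, and the log2 fold change was -0.17 ± 0.14 (edgeR adjusted p = 0.551). Stat2 stood at 188, 155 and 160 CPM on the high fat diet, against at 177, 179 and 206 CPM on the normal diet, with a log2 fold change of -0.16 ± 0.11 (edgeR adjusted p = 0.473). Its partner Irf9 was at 0.05 ± 0.12.

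The cytosolic nucleic acid sensors split into a group of 3 RNA helicases near 0 and Zbp1 below it. Ddx58, or RIG-I, which senses RNA with a free triphosphate end, had 96.0, 104 and 99.1 CPM on the high fat diet, against 77.6, 101 and 89.1 CPM on the normal diet. The log2 fold change was 0.16 ± 0.10 (edgeR adjusted p = 0.463). Those of Ifih1 (MDA5, a sensor of long double-stranded RNA) and Dhx58 (LGP2, its regulator) were 0.0046 ± 0.072 and 0.10 ± 0.07. Zbp1, a sensor of left-handed nucleic acid that can start necroptosis, had 53.9, 47.1 and 53.4 CPM on the high fat diet, against 83.6, 62.0 and 94.3 CPM on the normal diet. All high fat diet libraries were below all normal diet libraries, by the least against normal diet replicate 2. Its log2 fold change was -0.64 ± 0.16 (edgeR adjusted p = 0.111; DESeq2 adjusted p = 0.00954).

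Among the enzymes that act on double-stranded RNA, Oasl1 stood apart from its own family. Oas1a, Oas2 and Oas3 make the short oligoadenylates that switch on RNase L, and Oasl2 is a relative. Their log2 fold changes lay between 0.06 (Oas3) and 0.19 (Oasl2), and those of the kinase Eif2ak2 (PKR, which stops translation) and the editing enzyme Adar were 0.23 and 0.08. Oas2, the most abundant of them in CPM, had 242, 228 and 202 CPM on the high fat diet, against 182, 275 and 186 CPM on the normal diet. The groups overlap (log2 fold change 0.06 ± 0.17, edgeR adjusted p = 0.883), with normal diet replicate 2 the highest library of all.

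Oasl1 (ENSMUSG00000041827, mm10 chromosome 5, 114923240 to 114937915), which in mice is known to restrain translation of Irf7, had 52.4, 70.6 and 61.8 CPM on the high fat diet, against 167, 87.0 and 146 CPM on the normal diet. Every high fat diet library lay below every normal diet library, and normal diet replicate 2 was the nearest to them. The log2 fold change of Oasl1 was -1.11 ± 0.25, 53.8% lower, which missed the threshold in edgeR (adjusted p = 0.102) and passed it in DESeq2 (adjusted p = 0.00057).

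The 3 counted IFIT genes lie near each other on chromosome 19 but did not stand together. Their proteins bind viral RNA ends or complexes of initiation factors. Ifit2 and Ifit3 are 7112 bases apart, and Ifit3 and Ifit1 are 52140 bases apart with Ifit3b between them. Ifit2 (34550694 to 34576419) had 70.7, 59.5 and 78.0 CPM on the high fat diet, against 99.8, 111 and 111 CPM on the normal diet. The groups do not overlap, and the normal diet libraries lie close together. Its log2 fold change was -0.63 ± 0.11 (edgeR adjusted p = 0.0659; DESeq2 adjusted p = 0.000452). Ifit3 (34583531 to 34588731) had 66.5, 60.5 and 57.6 CPM on the high fat diet, against 79.0, 87.5 and 85.7 CPM on the normal diet, again without overlap. Ifit3 had a log2 fold change of -0.45 ± 0.08 (edgeR adjusted p = 0.0676; DESeq2 adjusted p = 0.00183). Ifit1, at 11.6, 13.4 and 12.8 CPM on the high fat diet, against 12.01, 9.37 and 14.1 CPM on the normal diet, overlapped fully (log2 fold change 0.09 ± 0.17, edgeR adjusted p = 0.816).

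Ifit3 and Ifit3b are near-copies, so reads may have been split between them or lost. Of the distinct 50-base words in the GENCODE transcripts of Ifit3, 51.2% also occur in Ifit3b. The Ifit3b row had 14.8, 13.3 and 10.6 CPM on the high fat diet, against 15.3, 19.7 and 17.5 CPM on the normal diet, with a log2 fold change of -0.44 ± 0.17 (edgeR adjusted p = 0.222). Its groups do not overlap either, though its nearest libraries, 14.8 and 15.3 CPM, almost meet. Oas1a shares 57.6% of its words with Oas1g, and the shares of Herc6 and Rtp4 were 12.5% and 11.6%. Rsad2, Oasl1, Ifit2 and Zbp1 share 0 words with any other gene. No strand-keeping step is named in the labels, so the reads of Dhx58 and its antisense transcript Dhx58os, and those of Adar and Chrnb2, Irf7 and Phrf1, or Eif2ak2 and Gm26637, cannot be told apart where their exons overlap.

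The transcripts of both Mx GTPase genes were level between the diets. Mx1 had 48.3, 45.5 and 50.8 CPM on the high fat diet, against 49.5, 40.7 and 54.1 CPM on the normal diet, a log2 fold change of 0.0020 ± 0.12 (edgeR adjusted p = 0.995). Mx2 had 14.9, 20.8 and 20.3 CPM on the high fat diet, against 15.8, 17.9 and 22.5 CPM on the normal diet, a log2 fold change of -0.0051 ± 0.18 (edgeR adjusted p = 0.992). The intervals of these differences ran from -0.27 to 0.28 for Mx1 and from -0.44 to 0.43 for Mx2 on the log2 scale.

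In the ISG15 system the ligase stood lower and the modifier itself varied among normal diet libraries. Herc6, which in mice attaches ISG15 to proteins, had 55.5, 53.1 and 52.6 CPM on the high fat diet, against 68.5, 68.6 and 82.9 CPM on the normal diet. The groups do not overlap, and the log2 fold change was -0.45 ± 0.09 (edgeR adjusted p = 0.0842; DESeq2 adjusted p = 0.00467). Isg15 had 20.8, 23.0 and 24.7 CPM on the high fat diet, against 34.3, 21.8 and 49.4 CPM on the normal diet. Normal diet replicate 2 lay among the high fat diet libraries while the other two lay above them, and the log2 fold change of -0.62 ± 0.28 did not pass (edgeR adjusted p = 0.303). Usp18, the protease that removes ISG15 and damps the receptor, was at -0.19 ± 0.13.

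Rsad2 had the smallest p of any member. It encodes viperin, a radical SAM enzyme that turns CTP into a chain terminator of viral RNA synthesis (ENSMUSG00000020641, mm10 chromosome 12, 26442753 to 26456452). Its transcript stood at 93.2, 107 and 111 CPM in high fat diet libraries, against 260, 167 and 214 CPM in normal diet libraries. Each high fat diet library was below each normal diet library. The log2 fold change was -1.04 ± 0.17, 51.4% lower, with an edgeR adjusted p of 0.0560, just missing the threshold, and a DESeq2 adjusted p of 4.01e-06. With the hepatocyte score (the mean log2 CPM of 12 hepatocyte markers) as a covariate, the log2 fold change of Rsad2 was -0.62 ± 0.17 (edgeR adjusted p = 0.549). That of Oasl1 was -0.61 ± 0.32 (edgeR adjusted p = 0.782). Ifit2, Ifit3, Herc6 and Zbp1 were then at -0.75, -0.60, -0.58 and -0.59. The score was 7.97, 7.21 and 7.15 on the high fat diet, against 4.16, 6.26 and 6.29 on the normal diet. Since the score itself separates the diets, the parts of the diet and of hepatocyte RNA in these values cannot be told apart. The authors' deposited table gives -0.99 on the log2 scale with an adjusted p of 6.63e-06 for Rsad2.

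Samhd1, which breaks down the deoxynucleotides that retroviruses need, was the most abundant member in CPM. It had 704, 608 and 665 CPM on the high fat diet, against 962, 706 and 871 CPM on the normal diet. The groups are separate by a margin of 704 against 706 CPM only, which the deposited FPKM do not keep (181 FPKM in high fat diet replicate 1, against 179 FPKM in normal diet replicate 2), and the log2 fold change was -0.36 ± 0.13 (edgeR adjusted p = 0.220). Cmpk2, a mitochondrial nucleotide kinase, and the exonuclease Isg20 were at -0.16 ± 0.11 and -0.09 ± 0.19.

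The other effectors had log2 fold changes between -0.34 (Ifi35) and 0.12 (Ifi27l2a), and none passed in edgeR or DESeq2. Parp14, an ADP-ribosyltransferase, was the most abundant of them in CPM, with 254, 244 and 221 CPM on the high fat diet, against 226, 254 and 257 CPM on the normal diet. Its groups overlap (log2 fold change -0.04 ± 0.09, edgeR adjusted p = 0.868). Ifi35 had 21.97, 20.3 and 22.2 CPM on the high fat diet, against 23.1, 27.1 and 31.7 CPM on the normal diet, and a log2 fold change of -0.34 ± 0.13 (edgeR adjusted p = 0.228). Bst2 was at -0.22 ± 0.10 and did not overlap in CPM, though it did in FPKM, while Ifi44, Rtp4, Xaf1 and Trim30a, at -0.25, -0.14, -0.06 and 0.05, did.

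**Figure D3:**
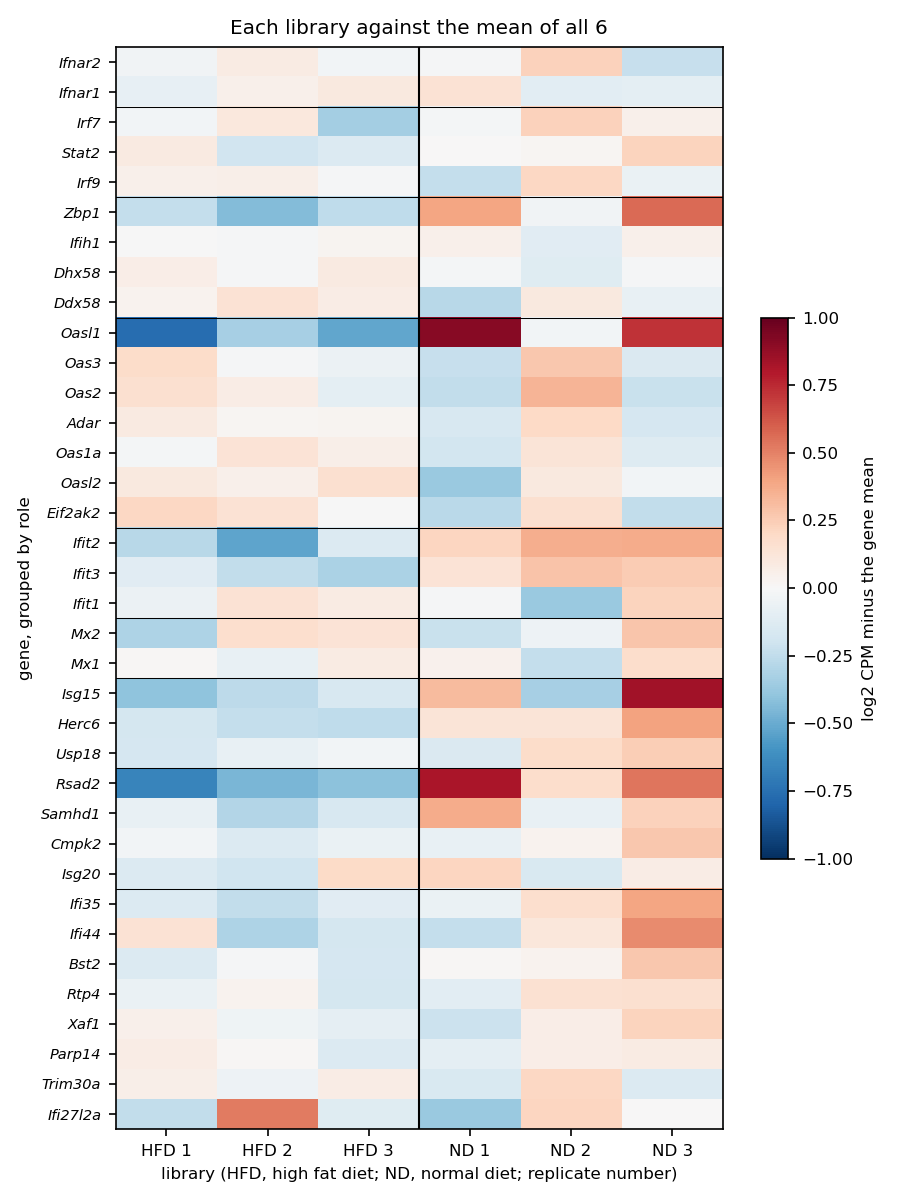
Log2 CPM of each member in each library relative to the member's mean over all 6 libraries, with the 3 high fat diet libraries left of the 3 normal diet libraries and members grouped by role. Rsad2 and Oasl1 are low in every high fat diet library, whereas the Oas genes are high in normal diet replicate 2.

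Neighbouring genes give a contrast within each library that does not depend on library scaling. Oasl1 and Oasl2 lie 11006 bases apart on chromosome 5. The count ratio of Oasl1 to Oasl2 was 0.54, 0.752 and 0.611 on the high fat diet, against 2.38, 0.897 and 1.64 on the normal diet. Rsad2 and Cmpk2 lie 12752 bases apart on chromosome 12, and the ratio of Rsad2 to Cmpk2 was 3.12, 3.88 and 3.79 on the high fat diet, against 8.98, 5.33 and 5.82 on the normal diet. In both pairs every high fat diet ratio was below every normal diet ratio, with mean differences of -1.27 and -0.87 on the log2 scale. Ifit3 to Ifit1 gave 5.72, 4.51 and 4.5 on the high fat diet, against 6.58, 9.34 and 6.07 on the normal diet, a mean difference of -0.56 without overlap. The ratios of the other 4 adjacent member pairs (Ifit2 to Ifit3, Ifnar2 to Ifnar1, Mx2 to Mx1 and Oas3 to Oas2) overlapped between the diets, with differences of -0.18, -0.03, -0.02 and -0.02. The pairs were described because of their position, and no test was made on the ratios. In each pair the member with the lower log2 fold change was put on top. The negative sign of the differences follows from that choice and is not a result. Oasl1, Rsad2 and Ifit3 did not overlap between the diets by themselves either, so these ratios partly restate their values. How often the ratios of neighbouring genes do not overlap over the whole table was not counted.

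**Figure D4:**
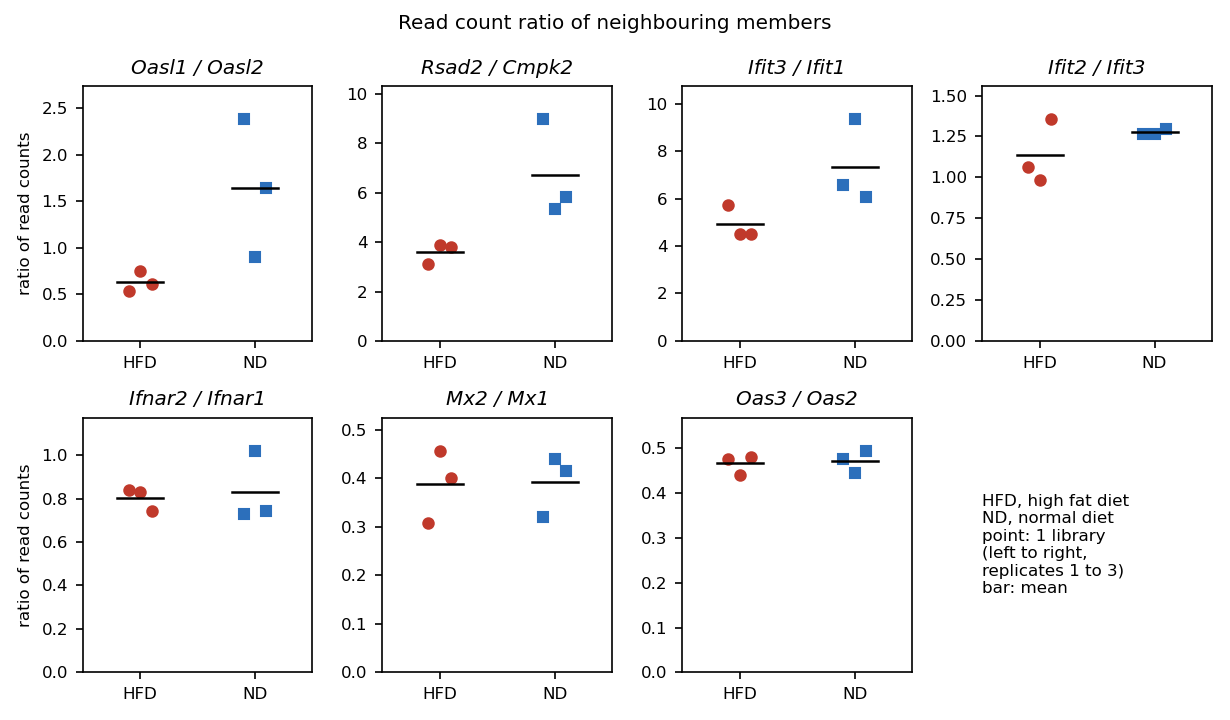
Ratio of read counts of neighbouring members, on linear axes from 0, with a point for each library, a bar at the mean, and high fat diet (HFD) left of normal diet (ND) in each panel. Oasl1 to Oasl2, Rsad2 to Cmpk2 and Ifit3 to Ifit1 are lower in every high fat diet library, and the other 4 pairs overlap. In each pair the member with the lower log2 fold change is on top.

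In edgeR with TMM factors, the calls among members turned on normal diet replicate 2. With it, edgeR called 0 members and 0.634% of all genes, whereas DESeq2 called 6 members. That library did not lie to one side of its group. It was above both other normal diet libraries in 13 members (among them Oas2 and Irf7), between them in 12, and below both in 11 (among them Rsad2 and Oasl1). Without it, edgeR called 8 members lower at an adjusted p under 0.05 (5.9% of all genes were). These were Herc6, Ifit2, Ifit3, Isg15, Oasl1, Rsad2, Samhd1 and Zbp1. Eif2ak2 was then called higher (3.54% of all genes were). With any other single library left out, 0 members were called. The mean log2 CPM over all members was 6.18, 6.19 and 6.18 on the high fat diet, against 6.26, 6.33 and 6.41 on the normal diet, so the high fat diet libraries were the lower ones and the closer together. The median coefficient of variation of a member was 7.14% on the high fat diet and 14.8% on the normal diet, beside 9.65% and 15.0% over all genes. It was larger on the normal diet in 29 of 36 members (80.6%) and in 69.4% of all genes.

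Of the other genes of the pathway, listed apart from the members, those of interferon gamma stood lowest on the high fat diet. In the list of genes that lead to interferon production, 0 of 23 tested passed in edgeR, with a median log2 fold change of -0.01. At an unadjusted edgeR p under 0.05, 2 were lower and 2 higher, and DESeq2 called 1 higher. Over all genes, 8.4% were lower and 10.2% higher at that unadjusted p, and DESeq2 called 3.46% lower and 5.27% higher. The 23 include receptors, adaptors, kinases and transcription factors, and no interferon gene itself was among those tested. The list's smallest p values belonged to Tlr9, an endosomal DNA receptor, with 33.2, 38.2 and 41.2 CPM on the high fat diet, against 29.2, 21.8 and 22.7 CPM on the normal diet (log2 fold change 0.61 ± 0.14, edgeR adjusted p = 0.0971), and to Tlr3, a receptor for double-stranded RNA (-0.25 ± 0.09, edgeR adjusted p = 0.224). In the list of receptor signalling genes outside the members, 0 of 17 passed in edgeR (5 lower at an unadjusted p under 0.05; DESeq2 called 5 lower), with a median of -0.18. Irf1, a factor induced by interferon gamma, was nearest, with 163, 126 and 167 CPM on the high fat diet, against 326, 259 and 382 CPM on the normal diet. Its log2 fold change was -1.08 ± 0.17 (edgeR adjusted p = 0.0540), and that of Irf8, a myeloid lineage factor, was -0.55 ± 0.15 (edgeR adjusted p = 0.131).

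Among 85 further interferon stimulated genes, Ifi205 fell and 0 rose in edgeR, with a list median of -0.11. Ifi205, of the family of DNA-binding p200 proteins, had 39.5, 34.8 and 39.7 CPM on the high fat diet, against 66.4, 62.9 and 64.8 CPM on the normal diet (log2 fold change -0.77 ± 0.08, edgeR adjusted p = 0.0337). DESeq2 called 9 of that list lower and 2 higher. Over all genes, edgeR called 27 of 14361 lower and 64 higher, and DESeq2 called 3.46% lower and 5.27% higher. Those shares are the background for the calls in each of these lists. Of 36 tested genes of the interferon gamma response, 3 fell and 0 rose in edgeR, 34 had a log2 fold change below 0 (7184 of 14361 over all genes), and the median was -0.68. The 3 were the guanylate-binding proteins Gbp2b (-1.66 ± 0.15, edgeR adjusted p = 0.0337), Gbp7 (-0.67 ± 0.08, edgeR adjusted p = 0.0420) and Gbp8 (-0.77 ± 0.10, edgeR adjusted p = 0.0420), whose close copies make the split of reads among them uncertain. DESeq2 called 25 of that list lower and 1 higher. Over the 4 lists together edgeR called 4 genes. Leaving out normal diet replicate 2 gave 52 called, leaving out replicate 3 of that diet gave 2, and leaving out any other single library gave 0. Irf1 and Socs1 are among the genes that belong both to that list and to the one of receptor signalling, and these lists too were written with earlier results known.

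The libraries carried the defining transcripts of Kupffer cells, the macrophages resident in the liver. Clec4f, a lectin of these cells, stood at 7441, 6420 and 5835 CPM on the high fat diet, against 7405, 10382 and 5966 CPM on the normal diet. The 8 Kupffer cell markers summed to 19146 to 24072 CPM on the high fat diet, against 17775 to 29082 CPM on the normal diet. Their median log2 fold change was -0.18, with 5 below 0 and 3 above it, and 0 passed in edgeR. RNA of other cells differed along with the diet. The summed CPM of 12 hepatocyte markers, led by Alb, was 4782 to 8084 on the high fat diet and 542 to 2572 on the normal diet, 6 monocyte markers led by Ccr2 summed to 489 to 732 and 226 to 468 CPM, and 9 neutrophil markers led by Csf3r to 289 to 330 and 193 to 203 CPM. The sums follow their most abundant gene, and the median log2 fold changes over these lists were 1.68 for hepatocyte, 1.07 for monocyte and 2.52 for neutrophil markers. In edgeR 0, 1 and 3 of these markers passed, all higher. All high fat diet libraries lay above all normal diet libraries for 10 of 12 hepatocyte, 4 of 6 monocyte and 9 of 9 neutrophil markers. That held for 14.5% of all genes. Of the 6 monocyte markers, 5 had a log2 fold change above 0 and 1 below it. The 6 conventional dendritic cell markers, led by Flt3, summed to 126 to 139 CPM on the high fat diet, against 144 to 285 CPM on the normal diet. The sums on the high fat diet and the normal diet were 87.2 to 108 and 102 to 123 CPM for 6 plasmacytoid dendritic cell markers (led by Tcf4), 36.3 to 68.0 and 39.1 to 166 CPM for 5 of T and NK cells (Gzma), 53.3 to 75.9 and 49.4 to 62.2 CPM for 4 of B cells (Cd79a), 933 to 1216 and 1136 to 2658 CPM for 6 of sinusoidal endothelium (Stab2), and 40.8 to 57.4 and 66.5 to 218 CPM for 6 of stellate cells (Dcn). Within its group, normal diet replicate 2 had the lowest sums of the monocyte, neutrophil, T and NK cell, endothelial and both dendritic cell lists, and the highest Kupffer cell sum (29082 CPM). No marker tested was at 0 in all libraries. Their part in the values of the interferon stimulated genes was not tested, and in bulk RNA fewer cells of a type and less RNA per cell cannot be told apart. Total counts per library lay between 17470439 and 23610956.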

How the data were processed

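Poly(A)-selected RNA of liver macrophages was sequenced in 6 libraries. The authors deposited 1 table with raw read counts, a normalised signal per library, FPKM, a log2 fold change, a p-value and an adjusted p-value per gene. The build was mm10 and the tools were featureCounts, HISAT2, STAR, STAR-Fusion, StringTie, DESeq and edgeR, per the submitters' processing notes. The sources used here do not say in which versions, or how reads mapping to several genes were treated. The deposited signal was the count divided by 1 size factor per library and was not tested.

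From the deposited counts, edgeR 4.0.16 in R 4.3.3 (TMM, default low-count filter, robust quasi-likelihood test, Benjamini-Hochberg adjustment, threshold 0.05) tested 14361 genes. The SE is the log2 fold change over the square root of F. Replicates differed beyond the counting noise (chi-square 13.7 to 72.4 per degree of freedom). The p-values set the diet difference of a gene against the spread between these libraries. The square root of edgeR's common dispersion, which leaves out counting noise, was 20.9%. Of 14918 identifiers, 14842 matched GENCODE names of GRCm38 and the others kept the deposited name. Log2 CPM used a prior count of 2. DESeq2 1.42.0, limma voom 3.58.1, other scalings and filters, a hepatocyte score (the mean log2 CPM of 12 markers) as covariate and left-out libraries were alternatives. The fit was also run on simulated counts with known changes. The simulation gave every gene the same spread, smaller than the 20.9% above, so it does not show the power in these data.

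The members and all lists were chosen with earlier results of these data known. Every member is named. Full statistics were given, in each role, for the member of highest mean CPM and the one of smallest p, and in other pathway lists for genes past the threshold or else for the 2 of smallest p. Each marker list is named by its most abundant gene. Values by library of Ifit1, Ifit3 and Isg15, and the promoters printed, were chosen after values were seen. An item of the pathway is not reported here.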

Additional observations from a re-analysis of the deposited data

How the results depend on the processing

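The limits of these data are the 3 libraries per diet, the single deposited table, and RNA of other cells that differed along with the diet. The count of members called was 0 in edgeR. It was 1 under upper-quartile scaling (Rsad2, adjusted p = 0.0448), 6 in DESeq2, and between 0 and 9 with 1 library left out (9 without normal diet replicate 2, otherwise 0). It was 0 under the remaining alternatives, with 6 to 10 members at an unadjusted p under 0.05 in them. Over all genes 91 were called, against 1204 in DESeq2, 0 with the hepatocyte score as covariate (1003 at an unadjusted p under 0.05), and 0 to 1385 with 1 library left out: 4, 0 and 2 without high fat diet replicates 1 to 3, and 0, 1385 and 22 without normal diet replicates 1 to 3. The other interferon lists held 4 called genes together, 8 under upper-quartile scaling, 40 in DESeq2, 0 with the hepatocyte score, and 0 to 52 with 1 library left out (2 without normal diet replicate 3, 52 without replicate 2). The median log2 fold change of the members, -0.048, was -0.23 with the hepatocyte score and -0.12 to -0.041 with 1 library left out. High fat diet replicate 1 held the most hepatocyte RNA and normal diet replicate 1 the least. Without both, an alternative chosen after seeing the data, the median was -0.14 and 0 genes were called in the whole table (1384 had an unadjusted p under 0.05), the members and other lists included. The cause was not tested.

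Rsad2, Oasl1, Ifit2, Ifit3, Herc6 and Zbp1 kept a log2 fold change below 0 in all 16 alternatives. The values lay between -1.20 and -0.62 for Rsad2, -1.36 and -0.61 for Oasl1, and -0.75 and -0.53 for Ifit2. They lay between -0.60 and -0.40 for Ifit3, -0.58 and -0.35 for Herc6, and -0.80 and -0.50 for Zbp1. Under the hepatocyte score, Rsad2 and Oasl1 had their value nearest 0, and Ifit2, Ifit3 and Herc6 their value furthest from 0. Zbp1 was then at -0.59. That score was higher in every high fat diet library than in every normal diet library, so it cannot be parted from the diet. Each of these 6 genes passed an adjusted p of 0.05 in 2 alternatives (DESeq2, and edgeR without normal diet replicate 2), and Rsad2 in 3. The 6 were singled out because DESeq2 called them, so that pass was fixed by the choice. In each of them all high fat diet libraries lay below all normal diet libraries, so leaving out a library could hardly turn the sign. The kept sign and the DESeq2 pass are thus no added support. A sign changed in 56 of 576 values of single members, all of them uncalled, in 17 genes. No paired analysis was possible because the labels give no replicate number, litter or batch that the diets share.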
